A study of Mus musculus with 6 samples.

Results

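The genes described here encode the myosins, the 6 actins, the tropomyosins, the troponins and the calponins with their transgelin relatives, the force-producing and filament-forming proteins of muscle and of the ordinary cell cytoskeleton. Members were taken by gene symbol: the Myh, Myl, Mylk, Myo, Tpm, Tnnt, Tnni, Tnnc and Cnn families, the actins Acta1, Acta2, Actb, Actc1, Actg1 and Actg2, and Tagln and Tagln2. The rule found 79 of the 22272 genes in the count table, and 47 of them had enough counts to be tested. They were divided by textbook isoform type into 29 sarcomeric genes, 7 smooth muscle genes, 12 cytoplasmic genes, 4 tropomyosin genes and 25 unconventional myosins. Between them, the tropomyosin genes make muscle and cytoplasmic products. A further 2 genes matched by the rule stand outside these types (Myl10 and Tnni3k). The RNA came from 6 samples of undifferentiated C2C12 cells at day 0, with 3 samples labelled ChREBP-beta overexpression and 3 samples titled GFP and labelled wild type in genotype. C2C12 is 1 clonal line of mouse myoblasts, which proliferate in serum and fuse into fibres when it is withdrawn. ChREBP-beta is the short, highly active product of Mlxipl, the gene of a transcription factor that responds to glucose. The labels do not state how the factor or GFP was brought into the cells. Nor do they state that the replicates were separate cultures, so the p-values cover the spread among these samples, and that spread may be technical.

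In striated muscle, myosin heavy chains with their essential and regulatory light chains form the thick filaments and pull on thin filaments made of sarcomeric actin. Tropomyosin lies along the thin filament, and the troponin complex, made of a tropomyosin-binding subunit (T), an inhibitory subunit (I) and a calcium-binding subunit (C), moves it when calcium rises. Smooth muscle and non-muscle cells lack troponin and switch myosin on by phosphorylating its regulatory light chain. Dividing myoblasts run mainly on cytoplasmic actin and non-muscle myosin II and turn on the sarcomeric set when they differentiate, while the unconventional myosins carry membranes and organelles or link actin to membranes.

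The promoters of 4 members whose transcripts moved in different ways are shown here, as the bases upstream of the RefSeq start (GRCm38.p6), 5′ to 3′ on the gene's strand, with bases that GENCODE M21 counts as exon left out. Capitals mark the CArG box, which is the binding sequence of serum response factor, searched as CCWWWWWWGG with W for A or T. They also mark the letters CATTCC (TEAD-type M-CAT), TATAAA and CACGTG. Each was searched on both strands, and stretches that depart from these letters were neither marked nor counted. Acta1 and Actc1 are the sarcomeric actins, which fell, Tnnt2 is the troponin T gene that rose, and Actg1 is the cytoplasmic gamma actin, which fell slightly.
Acta1, chr8:123894776-123895025, minus strand: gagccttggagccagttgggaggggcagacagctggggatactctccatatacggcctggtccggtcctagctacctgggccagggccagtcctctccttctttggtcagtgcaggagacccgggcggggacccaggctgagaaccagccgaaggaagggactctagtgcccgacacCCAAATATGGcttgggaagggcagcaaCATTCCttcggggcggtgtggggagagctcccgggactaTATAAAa
Actc1, chr2:114052888-114053125, minus strand: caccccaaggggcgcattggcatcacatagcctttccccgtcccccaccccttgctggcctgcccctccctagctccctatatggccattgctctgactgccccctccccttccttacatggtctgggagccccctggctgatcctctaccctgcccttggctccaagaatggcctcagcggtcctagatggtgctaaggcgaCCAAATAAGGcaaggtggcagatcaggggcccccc
Tnnt2, chr1:135836084-135836333, plus strand: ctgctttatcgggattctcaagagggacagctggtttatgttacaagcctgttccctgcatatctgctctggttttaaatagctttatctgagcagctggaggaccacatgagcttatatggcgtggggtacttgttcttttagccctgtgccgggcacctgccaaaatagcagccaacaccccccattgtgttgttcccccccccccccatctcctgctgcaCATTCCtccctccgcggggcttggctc
Actg1, chr11:120348543-120348677, minus strand: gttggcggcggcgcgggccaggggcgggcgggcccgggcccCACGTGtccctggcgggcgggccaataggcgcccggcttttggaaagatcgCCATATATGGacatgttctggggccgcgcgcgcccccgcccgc
The 3 actin promoters shown each held a CArG box, with the letters CCAAATATGG in Acta1, CCAAATAAGG in Actc1 and CCATATATGG in Actg1. The Tnnt2 and Acta1 stretches both held CATTCC. Of all 32851 RefSeq promoter windows, 1.47% held a CArG box in their 250 upstream bases, 12.6% CATTCC, 12.4% TATAAA and 6.02% CACGTG. A window was found for 67 of the 79 members, 82 windows in all, of which 10 held a CArG box: 5 of 31 sarcomeric, 3 of 12 cytoplasmic, 1 of 4 smooth muscle and 1 of 26 unconventional windows. A match of letters is a description of the sequence and not evidence of a bound site. The MEF2 site was found in 4 windows, all sarcomeric (2.92% of all windows), CATTCC in 21 of the 82 and CACGTG in 3 of the 82. The window of the actin Acta2 held no CArG box of these exact letters, and a further Tnnt2 window held no CATTCC. Looser forms of the CArG box were not searched, so their absence is not shown for any window.

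The counts summed to between 17665569 and 19163800 in ChREBP-beta libraries and between 17600221 and 18843229 in GFP libraries. Mlxipl was read at 219 ± 3.85 CPM (the count scaled to library size, with TMM normalization) with ChREBP-beta and 0.599 ± 0.111 CPM with GFP (SD, n = 3 each). All 6 myoblast markers listed (Myod1, Myf5, Pax7, Cdh15, Itga7 and Des) were detected, with a summed level of 119 to 126 CPM with ChREBP-beta and 342 to 374 CPM with GFP, and all 6 were called lower. The 8 myotube markers listed summed to 0.478 to 0.653 CPM with ChREBP-beta and 4.29 to 5.40 CPM with GFP. Of these, Myog and Atp2a1 were tested and both fell, and Myog, Ckmt2 and Mymx had no count in the ChREBP-beta libraries. In bulk RNA, fewer cells of a type and less RNA per cell cannot be told apart. Libraries also held RNA of tissues foreign to this culture: the 4 lung markers summed to 67.9 to 89.4 CPM with ChREBP-beta, 0.523 CPM in GFP replicate 1, and 133 and 93.0 CPM in GFP replicates 2 and 3. The 5 liver markers summed to 14.7 to 19.97 CPM with ChREBP-beta, 0.209 and 0.0553 CPM in GFP replicates 1 and 2, and 23.5 CPM in GFP replicate 3. The 6 fibroblast markers summed to 408 to 418 CPM with ChREBP-beta and 321 to 332 CPM with GFP, a sum made up mainly of Ly6a (358 and 238 CPM). Of these 6, 4 rose and 2 fell, Col14a1 115-fold and Dcn 3.90-fold. The 5 endothelial markers summed to 2.78 to 6.80 CPM and 0.732 to 4.96 CPM, and the 5 blood markers to 6.13 to 10.2 CPM and 4.08 to 11.2 CPM, and no marker of these lists was at 0 in all libraries. Without GFP replicate 1, 8 members were called higher and 28 lower of 51 tested, beside 7 and 24 of 47 with all libraries. GFP replicate 2, low in liver markers, stays in that fit, and a count of calls does not show which members hold foreign RNA. The part of the foreign RNA in the members' results was not tested.

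With ChREBP-beta, members of each muscle and cytoplasmic class fell, among them the sarcomeric actins Acta1 and Actc1, the calponin Cnn3 and the non-muscle heavy chain Myh10, while Myh13, Tnnt2 and Myo18a rose. Of the 47 members tested, 31 were called (against 58.7% of the 12166 genes tested), 7 of them higher (against 29.5%) and 24 lower (against 29.3%), by edgeR's quasi-likelihood test at a Benjamini-Hochberg adjusted p under 0.05. By at least 2-fold, 2 members rose, Myh13 and Tnnt2 (background 4.06%), and 10 fell (background 7.42%). The median log2 fold change was -0.18 over the tested members and -0.0040 over all genes tested. Some members passed the filter on low counts through the group in which they were high: 7 of the 47 reached its level in all 3 GFP libraries but not in all 3 ChREBP-beta libraries, and 1 (Myh14) the other way round. Of those 7, 6 are sarcomeric genes that were called lower, so their number supports no direction of the class. Among the 39 members at that level in every library, 25 were called, against 58.8% of the 11287 such genes. Of these members 7 rose and 18 fell, against 30% and 28.8% of those genes, with a median of -0.09 beside 4.6e-04 over those genes. Of the same 39, 2 rose and 4 fell by at least 2-fold, beside 297 and 597 of the 11287 genes. Medians of the tested members were -1.95 for sarcomeric (-0.02 over the 6 at the filter level in every library), -0.36 for smooth muscle, -0.14 for cytoplasmic, 0.0065 for tropomyosin and -0.12 for unconventional genes.

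**Figure D1:**
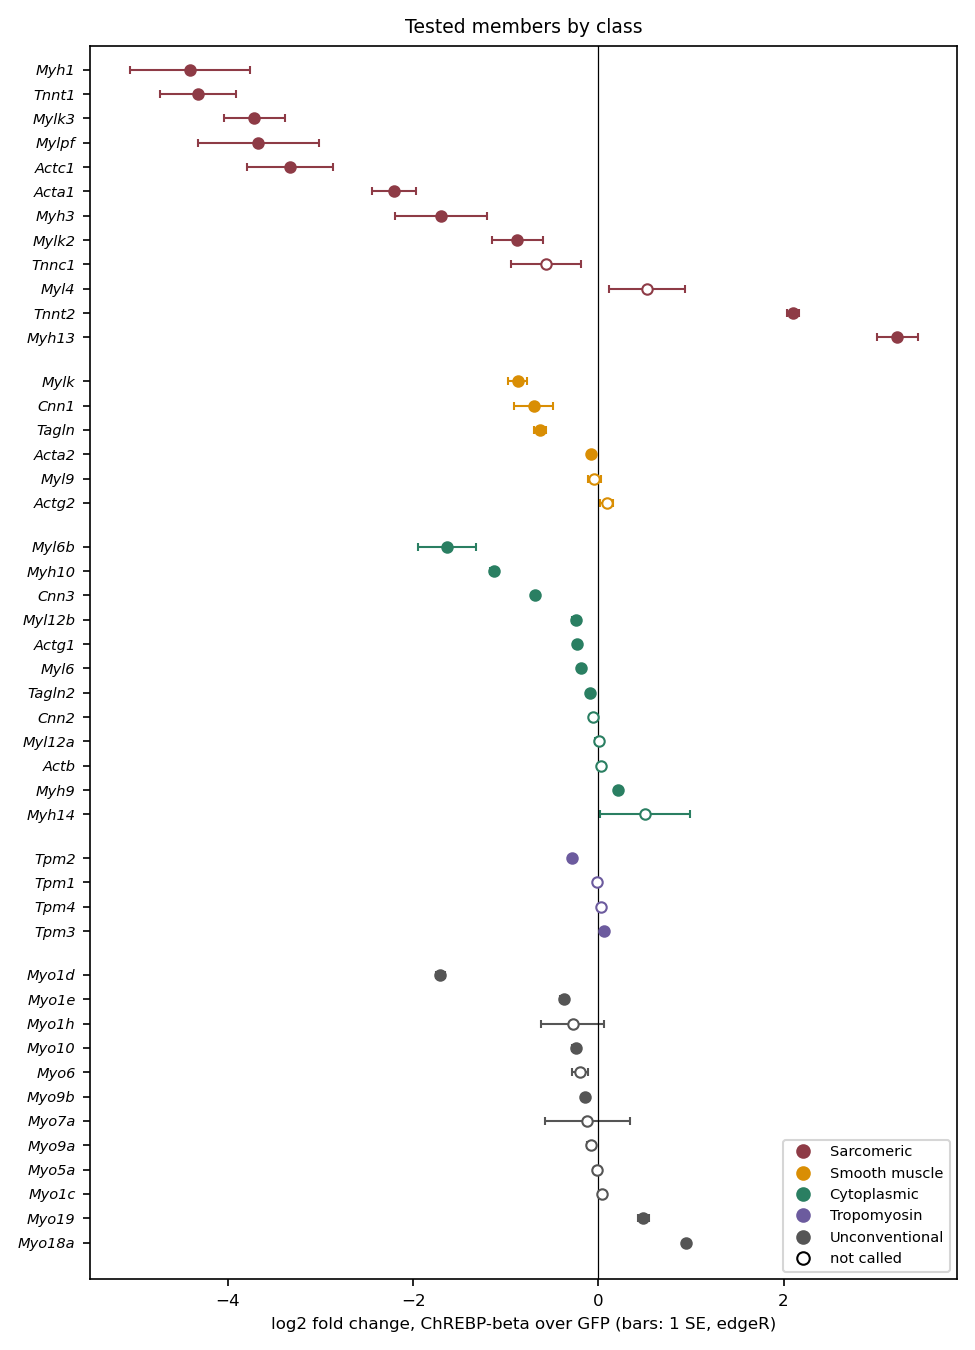
Log2 fold change of ChREBP-beta over GFP for the tested members described in the text, grouped by class; points are edgeR estimates, bars 1 standard error, and open points were not called. Sarcomeric genes span -4.41 (Myh1) to 3.23 (Myh13), while cytoplasmic, smooth muscle and tropomyosin genes lie nearer to 0.

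Both sarcomeric actins fell. Acta1, skeletal alpha-actin (ENSMUSG00000031972.5, chromosome 8, 123891769 to 123894751, minus strand, GRCm38), had 1.14, 1.06 and 1.45 CPM in ChREBP-beta libraries, against 4.92, 6.31 and 5.68 CPM in GFP libraries. The groups did not overlap, as in 63.2% of all genes tested, and the change was 4.62-fold lower (log2 -2.21, SE 0.24, edgeR adjusted p = 1.82e-08). Actc1, cardiac alpha-actin and the sarcomeric actin of embryonic muscle (ENSMUSG00000068614.7, chromosome 2, 114047282 to 114053548, minus strand), had 3, 4 and 2 counts with ChREBP-beta and 32, 31 and 32 counts with GFP. It was 10.1-fold lower (log2 -3.33, SE 0.46, adjusted p = 1.11e-06), and the groups did not overlap. Actc1 passed the filter only through the GFP libraries. The promoters of both genes, shown above, hold a CArG box, as does that of Actg1, which differed by 1.18-fold.

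Among the sarcomeric myosin heavy chains, 2 of the tested genes fell and Myh13 rose. Of all genes tested, 29.3% were called lower and 29.5% higher. The 2 that fell, Myh1 and Myh3, passed the filter only through the GFP libraries, so their number supports no direction of the heavy chains. Myh13, the extraocular or superfast heavy chain (ENSMUSG00000060180.12, chromosome 11, 67321658 to 67371586, plus strand), had 7.56, 10.8 and 9.83 CPM in ChREBP-beta libraries, against 1.15, 0.719 and 1.11 CPM in GFP libraries. Every ChREBP-beta library lay above every GFP library, and the rise was 9.38-fold (log2 3.23, SE 0.22, edgeR adjusted p = 3.98e-12). Its counts were 139, 204 and 170 with ChREBP-beta and 22, 13 and 20 with GFP, and no library held a value that was not whole at this gene. Myh13 is the last gene of the skeletal heavy chain cluster, which runs in the order Myh3, Myh2, Myh1, Myh4, Myh8 and Myh13 on the plus strand of chromosome 11. The other members of the cluster went another way or were hardly read. Myh3, the embryonic heavy chain, had 3, 4 and 10 counts with ChREBP-beta and 22, 15 and 20 counts with GFP (log2 -1.70, SE 0.49, edgeR adjusted p = 0.00486), and without ChREBP-beta replicate 3, its highest, the log2 value was -2.41. Myh1, the fast IIX heavy chain, had 2, 0 and 1 counts with ChREBP-beta and 18, 25 and 29 with GFP. The ratio of its levels was 23.7 in favour of GFP (95% counting interval 7.80 to 118; edgeR adjusted p = 2.91e-06), and the log2 fold change of -4.41 became -5.24 without ChREBP-beta replicate 1. Myh8, the perinatal chain, had 5, 0 and 0 counts with ChREBP-beta and 0, 12 and 9 with GFP, Myh2, the fast IIA chain, had none with ChREBP-beta and 0, 0 and 6 with GFP, and Myh4, the fast IIB chain, had no count in the 6 libraries. Downstream of Myh13, Gas7 (chosen after its values were seen), the gene beside the cluster, fell 1.85-fold (log2 -0.89, edgeR adjusted p = 1.27e-10).

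**Figure D2:**
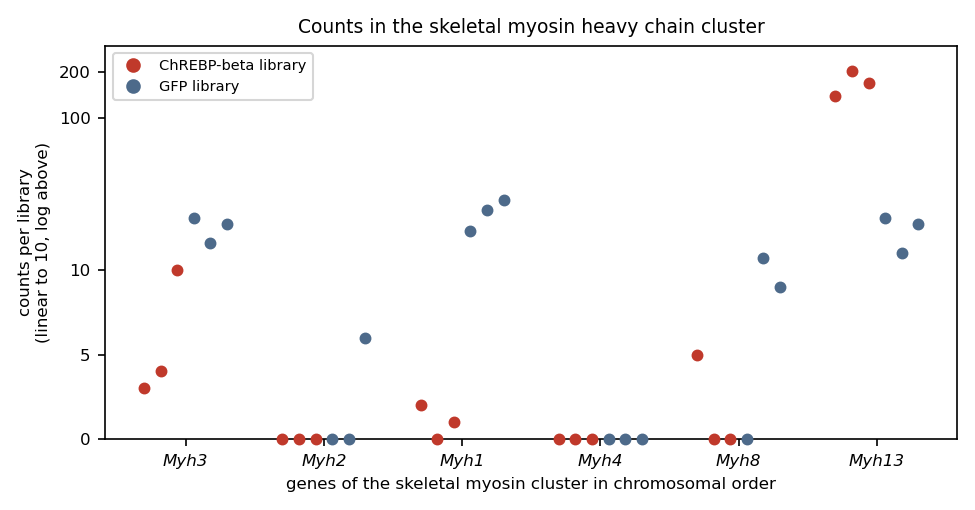
Counts per library (points; the axis is linear to 10 and logarithmic above) for the 6 genes of the skeletal myosin heavy chain cluster in chromosomal order. Myh13 has 139 to 204 counts in ChREBP-beta libraries and 13 to 22 in GFP libraries, whereas Myh1 and Myh3 are higher with GFP.

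The cardiac and slow heavy chains had too few counts to be tested. Myh6, the alpha cardiac chain, summed to 14 counts with ChREBP-beta and 14 with GFP, and Myh7, the slow and beta cardiac chain, to 1 and 6. Myh7b summed to 5 and 17 counts, and Myh15 had none. Counts of Myh6, Myh8 and Myh7 were 0 in GFP replicate 1, the library with the lowest lung marker level. Zeros were also seen in ChREBP-beta libraries, with 0, 1 and 0 counts of Myh7 and 5, 0 and 0 of Myh8. Myh7b had 9, 6 and 2 counts in GFP replicates 1, 2 and 3. The relation of these genes to foreign RNA was not tested.

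Counts of the fast light chains Mylpf and Myl1 were low, and lower with ChREBP-beta than with GFP. Mylpf passed the filter only through the GFP libraries, so no direction of the light chains is read from its call. Mylpf, the fast regulatory light chain (ENSMUSG00000030672.12), had 1, 4 and 0 counts with ChREBP-beta and 33, 13 and 23 with GFP, and fell 12.7-fold (log2 -3.67, SE 0.65, edgeR adjusted p = 3.30e-05; -5.16 without ChREBP-beta replicate 2). Myl1, the fast essential light chain, had no count with ChREBP-beta and 5, 9 and 4 with GFP, at least 5.93-fold lower when the ChREBP-beta group is set at a floor of 3 counts in all. It did not pass the filter. Myl3, the slow and ventricular essential light chain, went the other way, with 16, 13 and 9 counts with ChREBP-beta and 0, 1 and 0 with GFP. The ratio of its levels was 38.5 (95% counting interval 6.498 to 1558), and with no filter on low counts it was called higher (edgeR adjusted p = 2.49e-05). Myl4, the atrial and embryonic essential light chain, had 12, 39 and 18 counts with ChREBP-beta and 14, 16 and 18 with GFP and was not called (log2 0.53, SE 0.41, adjusted p = 0.277). Myl2 and Myl7, the ventricular and atrial regulatory chains, had 1 and 2 counts over the ChREBP-beta libraries and 0 and 3 over the GFP libraries.

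All 3 light chain kinases tested fell, where 29.3% of all genes tested were called lower, and nothing particular to the kinases is read from this count. Mylk3, the cardiac kinase, had 0.544, 0.213 and 0.347 CPM with ChREBP-beta, against 4.66, 4.20 and 5.85 CPM with GFP (13.1-fold lower, log2 -3.71, SE 0.33, edgeR adjusted p = 5.78e-10). Mylk2, the skeletal kinase, had 1.41, 1.54 and 1.33 CPM with ChREBP-beta, against 2.77, 2.38 and 2.73 CPM with GFP (1.83-fold lower, adjusted p = 0.00808). Mylk, the smooth muscle and non-muscle kinase, had 8.65, 8.29 and 8.61 CPM with ChREBP-beta, against 16.6, 14.6 and 15.4 CPM with GFP (1.82-fold lower, log2 -0.87, SE 0.10, adjusted p = 9.62e-08). In each of the 3 genes the groups of libraries did not overlap, as in 63.2% of all genes tested. Mylk3 passed the filter only through the GFP libraries. Mylk4 had 2 counts with ChREBP-beta and 7 with GFP.

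The troponin T genes moved in opposite directions. Tnnt2, cardiac troponin T, which embryonic skeletal muscle also makes (ENSMUSG00000026414.13, chromosome 1, 135836354 to 135852260, plus strand), had 67.1, 69.0 and 71.5 CPM in ChREBP-beta libraries, against 17.2, 16.3 and 14.8 CPM in GFP libraries. This was the highest CPM of any sarcomeric member in either group, the groups did not overlap, and the rise was 4.30-fold (log2 2.10, SE 0.064, edgeR adjusted p = 3.91e-19). Tnnt1, slow skeletal troponin T, had 3, 2 and 6 counts with ChREBP-beta and 108, 73 and 51 counts with GFP. It fell 20.1-fold (log2 -4.33, SE 0.41, adjusted p = 2.45e-09) and passed the filter only through the GFP libraries. Tnnt3, fast skeletal troponin T, had 2, 0 and 1 counts with ChREBP-beta and 8, 13 and 13 with GFP, a ratio of 11.2 in favour of GFP (95% counting interval 3.52 to 57.0). Per kilobase of exon, Tnnt2 made up 98.4%, 99.5% and 97.9% of the troponin T level with ChREBP-beta, against 43.9%, 47.9% and 52.3% with GFP. Tnnt1 held 1.02% ± 0.587 with ChREBP-beta and 42.6% ± 7.84 with GFP (SD, n = 3 each). The share depended on length scaling: with none, the difference between groups was 22.3 and not 50.6 percentage points. No other troponin was called higher, but of the troponin I and C genes only Tnnc1 had enough counts to be tested. Tnnc1, slow and cardiac troponin C, had 18, 23 and 11 counts with ChREBP-beta and 36, 26 and 16 with GFP, overlapping (log2 -0.56, SE 0.38, adjusted p = 0.204). Tnni1, slow troponin I, whose gene lies near Tnnt2 with Lad1 between them, summed to 28 counts with ChREBP-beta and 19 with GFP, Tnni3, the cardiac form, to 5 and 16, and Tnni2, the fast form, to 0 and 13 (at least 4.28-fold lower). Tnnc2, fast troponin C, summed to 8 and 25 counts, and 74% of its exon bases overlap Ube2c on the opposite strand, so its reads cannot be assigned without the strand setting. Beside Tnnt2, the 7 cardiomyocyte markers listed summed to 31.2 to 33.9 CPM with ChREBP-beta and 17.4 to 19.03 CPM with GFP. Of the 3 tested, Ryr2, the cardiac calcium release channel, rose 42.3-fold to 17.2 CPM, against 0.395 CPM with GFP, Nkx2-5 fell (log2 -0.56, adjusted p = 0.0262, not called when any of 4 of the 6 libraries was left out) and Gata4 was not called (adjusted p = 0.604). The other 4 averaged at most 0.418 CPM (Hand2, with GFP), and the part of such cells in the Tnnt2 result was not tested.

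**Figure D3:**
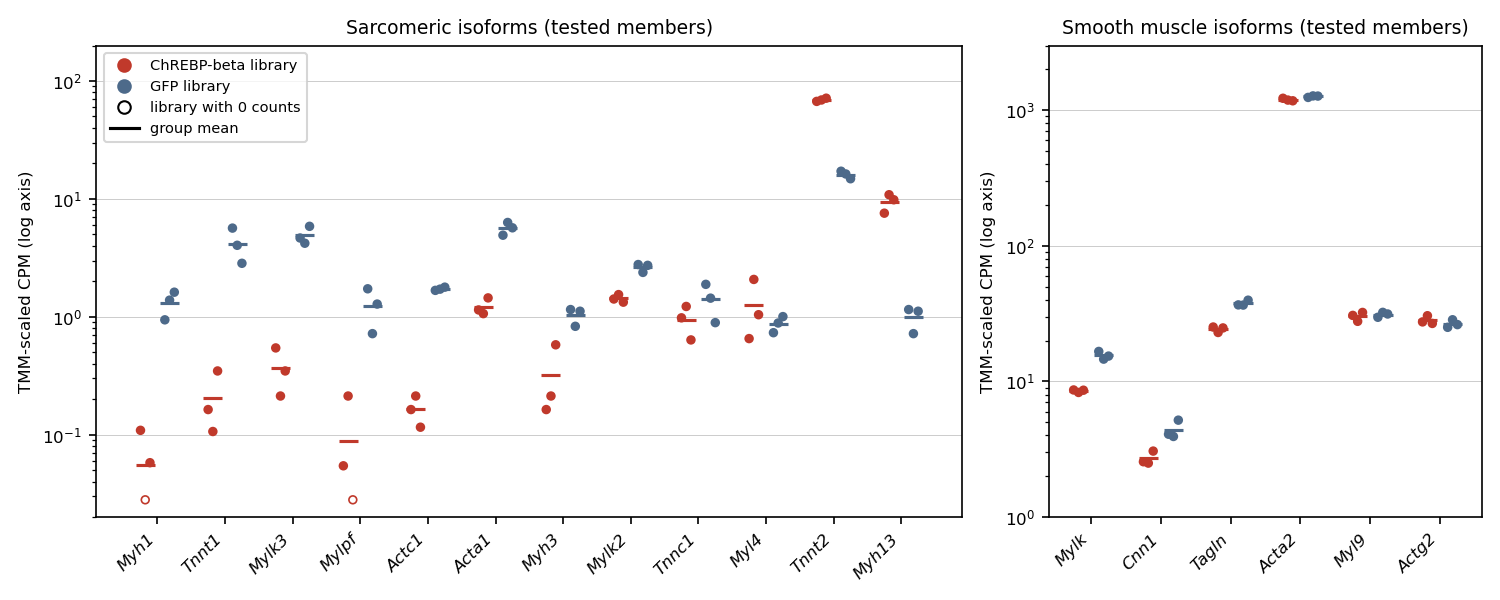
TMM-scaled CPM of each library (points, log axis) and group means (bars) for the tested sarcomeric and smooth muscle members; open points are libraries with 0 counts. Tnnt2 and Myh13 are higher in ChREBP-beta libraries, and Acta2 at 1173 to 1275 CPM is far above the other genes drawn.

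In sum over the 29 sarcomeric genes the level was higher with ChREBP-beta, at 82.6, 88.5 and 89.0 CPM, than with GFP, at 46.8, 45.03 and 45.1 CPM. Tnnt2 alone accounted for 69.2 ± 2.17 CPM of this with ChREBP-beta and 16.1 ± 1.18 CPM with GFP (SD, n = 3 each). Of the 12 members tested, 8 were called lower, against 29.3% of all genes tested. Among these 8, Actc1, Myh1, Myh3, Mylpf, Mylk3 and Tnnt1 passed the filter only through the GFP libraries, so the count supports no direction of the class. Of the 6 sarcomeric genes at the filter level in every library, 2 rose (Tnnt2 and Myh13), 2 fell (Acta1 and Mylk2) and 2 were not called.

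Of the smooth muscle class, 4 of 6 tested members fell and none rose, while 58.7% of all genes were called and 29.3% fell, and nothing particular to the class is read from its count. Cnn1, the basic calponin that binds actin in smooth muscle, had 2.56, 2.50 and 3.06 CPM with ChREBP-beta, against 4.08, 3.93 and 5.18 CPM with GFP (1.62-fold lower, edgeR adjusted p = 0.00704, and adjusted p = 0.052 without GFP replicate 3). Tagln, transgelin or SM22-alpha, had 25.2, 23.0 and 24.8 CPM with ChREBP-beta, against 36.7, 36.6 and 39.7 CPM with GFP (1.55-fold lower, log2 -0.63, SE 0.066, adjusted p = 1.24e-08). An antisense gene, Gm48529, overlaps 62.4% of the exon bases of Tagln, and its reads cannot be separated here. Acta2, smooth muscle alpha-actin (ENSMUSG00000035783.9, chromosome 19, 34241090 to 34255590, minus strand), was abundant in both groups, with 1225, 1188 and 1173 CPM with ChREBP-beta and 1243, 1275 and 1271 CPM with GFP. The difference was 1.06-fold lower (log2 -0.08, SE 0.026, adjusted p = 0.0119) and was not called without GFP replicate 2 (adjusted p = 0.083), ChREBP-beta replicate 2 (0.064) or ChREBP-beta replicate 3 (0.087). Actg2, the enteric smooth muscle actin, had 27.5, 30.5 and 26.8 CPM with ChREBP-beta and 25.1, 28.5 and 26.2 CPM with GFP (adjusted p = 0.302), and Myl9, the smooth muscle regulatory light chain, averaged 30.2 and 31.1 CPM (adjusted p = 0.601). Both overlapped between groups. Myh11, the smooth muscle heavy chain, had 9, 4 and 0 counts with ChREBP-beta and 2, 11 and 7 with GFP, too few to test. The 5 smooth muscle markers listed summed to 14.9 to 16.2 CPM with ChREBP-beta and 43.4 to 47.1 CPM with GFP: Synpo2 (13.7-fold) and Lmod1 (2.10-fold) fell, Kcnmb1, a subunit of the calcium-activated potassium channel, rose 9.76-fold, and Myocd and Pln had too few counts to test. Their part in the smooth muscle results was not tested.

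Cytoplasmic actins made up most of the actin transcripts, and their balance shifted slightly. Actg1, cytoplasmic gamma-actin (ENSMUSG00000062825.15, chromosome 11, 120345690 to 120348542, minus strand), had 4792, 4951 and 4915 CPM with ChREBP-beta, against 5723, 5763 and 5761 CPM with GFP. It fell 1.18-fold (log2 -0.23, SE 0.025, edgeR adjusted p = 1.22e-08) and the groups did not overlap. Actb, cytoplasmic beta-actin (ENSMUSG00000029580.14, chromosome 5, 142903115 to 142906754, minus strand), had 3309, 3297 and 3272 CPM with ChREBP-beta and 3158, 3234 and 3263 CPM with GFP. It was not called (log2 0.03, SE 0.025, adjusted p = 0.261), although its lowest ChREBP-beta library lay above the highest GFP library. Per kilobase of exon, Actb was 34.2%, 33.7% and 33.7% of the level of the 6 actins with ChREBP-beta, against 30.1%, 30.3% and 30.6% with GFP. Actg1 was 50.6% ± 0.648 with ChREBP-beta and 54.6% ± 0.307 with GFP, and Acta2 was 15.0% ± 0.381 and 14.5% ± 0.0732 (SD, n = 3 each). Acta1 held at most 0.103% and Actc1 at most 0.0276% in any library. The 6 actins summed to 3630 ± 21.3 CPM per kilobase with ChREBP-beta and 3961 ± 37.4 with GFP (SD, n = 3 each). Actin genes share much of their coding sequence, and the sources used here do not say how reads matching several genes were treated. At Actb 4 libraries held values that were not whole.

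**Figure D4:**
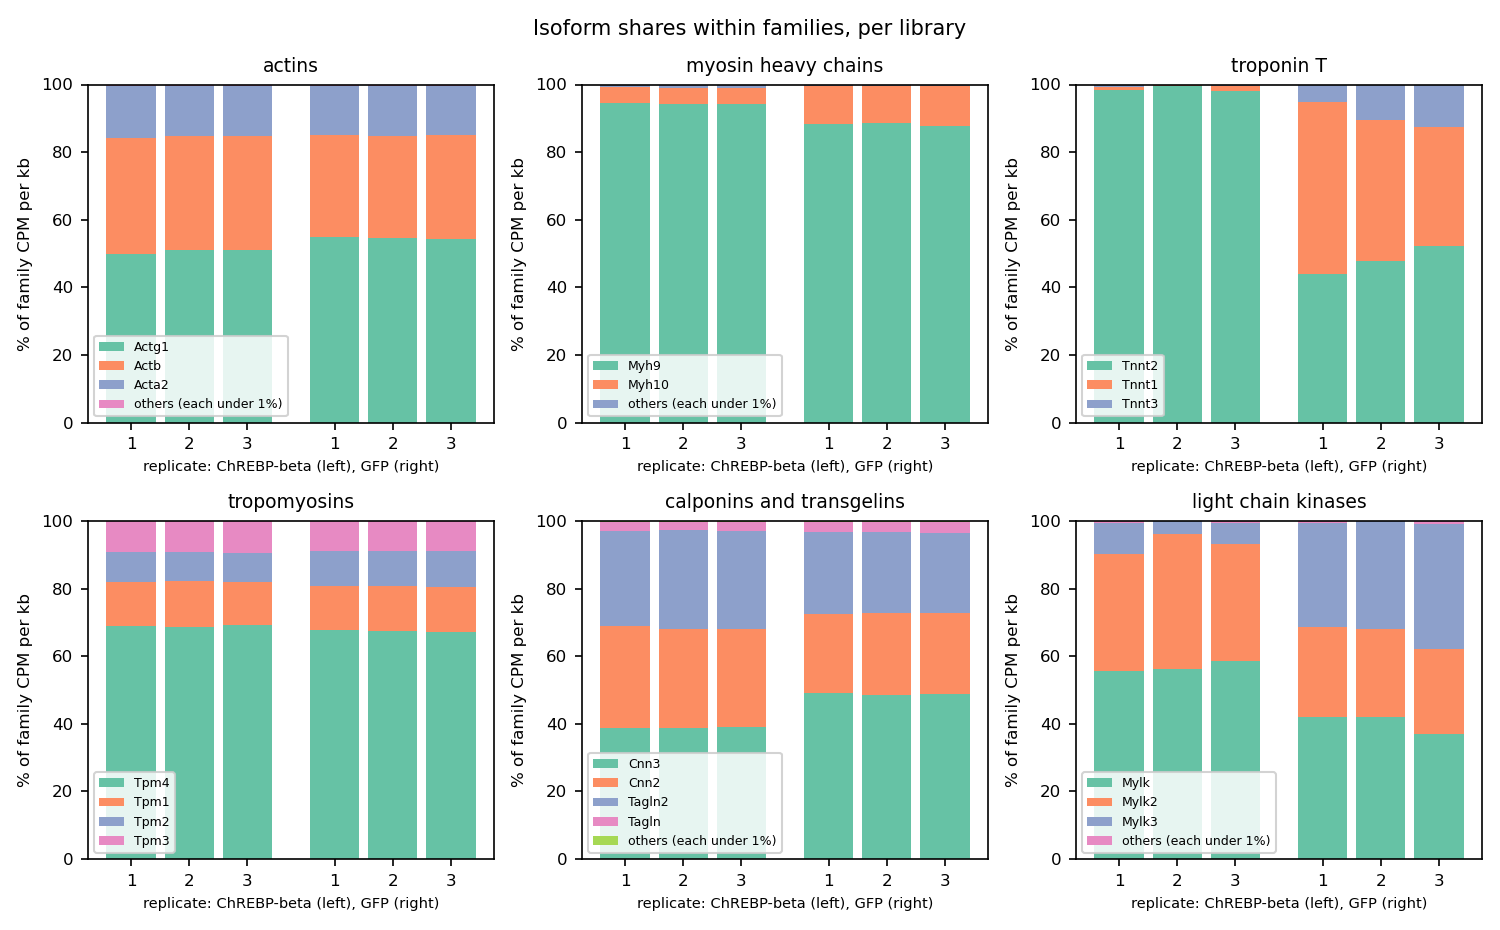
Share of each isoform in the level of its family (CPM per kilobase of exon, in percent) in each library, ChREBP-beta on the left and GFP on the right of each panel. Troponin T is nearly all Tnnt2 with ChREBP-beta and 43.9% to 52.3% Tnnt2 with GFP, and Myh9, Actb and Cnn2 hold larger shares with ChREBP-beta.

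Of the non-muscle myosin II heavy chains, Myh9 rose slightly and Myh10 fell. Myh9, the IIA heavy chain (ENSMUSG00000022443.17, chromosome 15, 77760587 to 77842175, minus strand), had 2259, 2249 and 2176 CPM with ChREBP-beta, against 1856, 1919 and 1995 CPM with GFP, and rose 1.16-fold (log2 0.21, SE 0.028, edgeR adjusted p = 5.45e-07). Myh10, the IIB heavy chain (ENSMUSG00000020900.15, chromosome 11, 68691559 to 68816632, plus strand), had 90.3, 93.1 and 91.4 CPM with ChREBP-beta, against 192, 193 and 216 CPM with GFP, and fell 2.19-fold (log2 -1.13, SE 0.041, adjusted p = 2.19e-17). The groups did not overlap at either gene. Myh10 supplied 4.67%, 4.82% and 4.89% of the heavy chain level per kilobase with ChREBP-beta, against 11.3%, 11.02% and 11.7% with GFP, and Myh9 supplied 94.2% ± 0.228 and 88.2% ± 0.408 (SD, n = 3 each). Both genes held values that were not whole in 3 libraries. Myh14, the IIC heavy chain, averaged 0.698 and 0.496 CPM (adjusted p = 0.389). Among the light chains, Myl6, the essential light chain of smooth and non-muscle myosin, averaged 370 ± 6.33 CPM with ChREBP-beta and 420 ± 4.04 CPM with GFP (1.14-fold lower, adjusted p = 3.03e-06). The regulatory light chain genes Myl12a and Myl12b are adjacent paralogs with values that were not whole in all 6 libraries, so their levels are uncertain. Myl12a was not called (224 CPM with ChREBP-beta and 224 CPM with GFP, adjusted p = 0.956), and Myl12b fell 1.18-fold (79.3 CPM with ChREBP-beta and 93.6 CPM with GFP, adjusted p = 1.29e-05). Myl6b, the essential light chain gene beside Myl6, had 1.36, 0.744 and 0.752 CPM with ChREBP-beta, against 3.401, 2.43 and 3.06 CPM with GFP, and fell 3.10-fold (log2 -1.63, SE 0.31, adjusted p = 8.28e-05).

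Among the calponin relatives that are not confined to smooth muscle, Cnn3, acidic calponin (ENSMUSG00000053931.11), had 552, 564 and 564 CPM with ChREBP-beta, against 900, 901 and 907 CPM with GFP. It fell 1.61-fold (log2 -0.69, SE 0.026, edgeR adjusted p = 3.18e-17), and 17.7% of its exon bases overlap Gm42928 on the opposite strand. Cnn2 averaged 344 ± 3.09 CPM with ChREBP-beta and 359 ± 12.2 CPM with GFP (SD, n = 3 each) and was not called (adjusted p = 0.0831). Tagln2 averaged 286 and 304 CPM (1.06-fold lower, adjusted p = 0.0124; 0.060 without GFP replicate 2 and 0.115 without ChREBP-beta replicate 1). Per kilobase, Cnn3 was 38.8% ± 0.0869 of the 5 calponins and transgelins with ChREBP-beta and 48.8% ± 0.363 with GFP (SD, n = 3 each).

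Tropomyosin genes changed by 1.22-fold at most. Tpm4, a cytoplasmic tropomyosin gene and the most abundant of the 4, had 1227, 1236 and 1236 CPM with ChREBP-beta and 1201, 1221 and 1213 CPM with GFP (log2 0.03, adjusted p = 0.395). Tpm1 averaged 690 ± 16.2 CPM with ChREBP-beta and 696 ± 13.7 CPM with GFP and was not called (adjusted p = 0.722). Tpm2, the beta-tropomyosin gene, had 207, 206 and 200 CPM with ChREBP-beta, against 242, 250 and 255 CPM with GFP (1.22-fold lower, log2 -0.29, SE 0.031, adjusted p = 2.28e-08). Tpm3 had 453, 457 and 468 CPM with ChREBP-beta and 442, 438 and 439 CPM with GFP, 1.04-fold higher at the edge of the threshold (edgeR adjusted p = 0.0497). It was not called in 10 of 13 alternatives, with adjusted p from 0.055 to 0.62 in those, and its values were not whole in all 6 libraries. Counts are per gene. Where a gene makes both muscle and cytoplasmic products, which differ by promoter and splicing, these cannot be told apart.

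In sum, the unconventional myosins were read at higher levels than the sarcomeric set, at 1997 against 86.7 CPM with ChREBP-beta. With GFP these sums were 2001 and 45.7 CPM. This did not hold gene by gene: with ChREBP-beta, Tnnt2 averaged 69.2 CPM and Myo1d 30.2 CPM. The called unconventional myosins divided between rises and falls. Of 25 genes, 13 were tested: 3 rose, 4 fell and 6 were not called. Of all genes tested, 29.5% were called higher and 29.3% lower, and nothing particular to the class is read from its counts. Myo1d, a class I myosin that links membranes to actin (ENSMUSG00000035441.14, chromosome 11, 80482126 to 80780025, minus strand), had 31.6, 28.5 and 30.4 CPM with ChREBP-beta, against 96.7, 97.0 and 101 CPM with GFP. It fell 3.26-fold (log2 -1.71, SE 0.051, edgeR adjusted p = 2.65e-19), and the groups lay far apart. Myo18a, a class XVIII myosin that acts at the Golgi (ENSMUSG00000000631.20, chromosome 11, 77763246 to 77865980, plus strand), had 262, 260 and 254 CPM with ChREBP-beta, against 123, 138 and 140 CPM with GFP, a rise of 1.93-fold (log2 0.95, SE 0.039, adjusted p = 1.72e-16). Myo19, a mitochondrial myosin, averaged 47.7 ± 0.644 CPM with ChREBP-beta and 34.0 ± 0.795 CPM with GFP (1.402-fold higher, adjusted p = 5.25e-08; SD, n = 3 each). Myo10, the filopodial myosin, averaged 259 ± 10.8 CPM with ChREBP-beta and 307 ± 15.7 CPM with GFP (1.19-fold lower, adjusted p = 2.58e-06; SD, n = 3 each).

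Myo1e and Myo9b, named after their values were seen, fell 1.30-fold and 1.10-fold (edgeR adjusted p = 2.83e-08 and 0.00132). The most abundant, Myo1c, averaged 491 ± 7.25 CPM with ChREBP-beta and 480 ± 6.88 CPM with GFP (adjusted p = 0.279), and Myo5a, a vesicle transporter, averaged 412 ± 3.05 and 417 ± 2.55 CPM (adjusted p = 0.546; SD, n = 3 each). Within class I, Myo1c was 75.2% ± 0.361 of the level per kilobase with ChREBP-beta and 66.2% ± 0.565 with GFP, and Myo1d was 4.71% ± 0.287 and 13.8% ± 0.202 (SD, n = 3 each). Myo6, Myo7a, Myo9a and Myo1h were not called (adjusted p = 0.0554, 0.836, 0.0518 and 0.497), and 25.8% of the exon bases of Myo1h overlap Kctd10 on the opposite strand. Myo18b, the muscle form of class XVIII, had 24, 19 and 7 counts with ChREBP-beta and 3, 4 and 5 with GFP; it missed the filter and was called higher without it (edgeR adjusted p = 0.00639).

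Per kilobase of exon, the levels of the 6 actins differed by orders of magnitude: with ChREBP-beta and GFP, Actg1 averaged 1838 and 2163 CPM per kilobase, Actb 1229 and 1201, Acta2 544 and 575, Actg2 18.1 and 17.1, Acta1 0.792 and 3.67, and Actc1 0.101 and 1.07. In both groups every library of a gene lay above every library of the next gene in that order. All 79 members together took 1.79% to 1.81% of counts with ChREBP-beta and 1.94% to 2.0% with GFP.

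**Figure D5:**
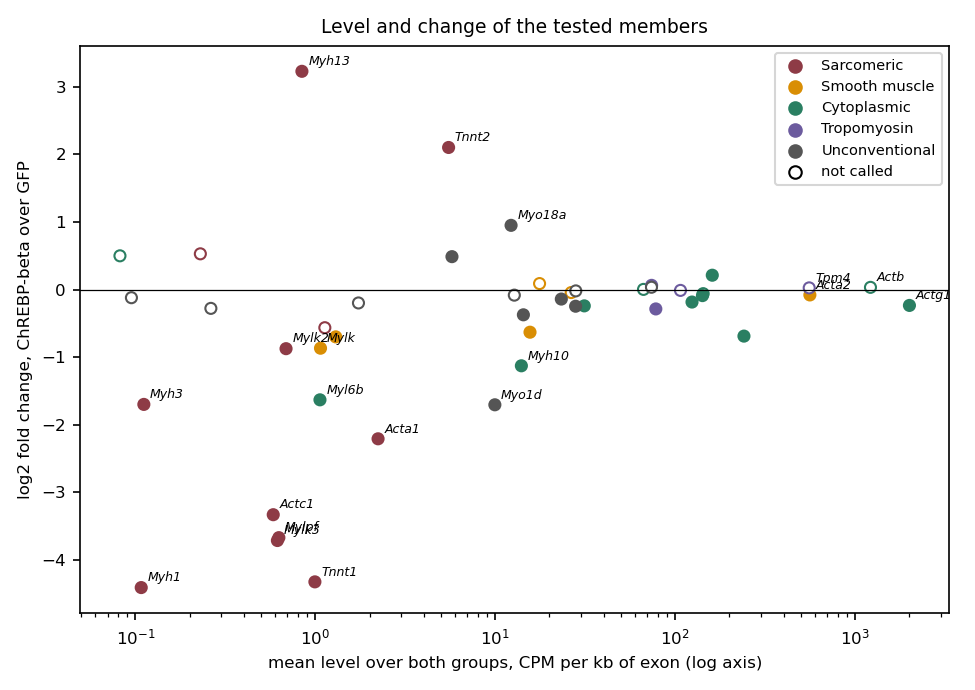
Log2 fold change of ChREBP-beta over GFP against the mean level over both groups (CPM per kilobase of exon, log axis) for the tested members described in the text; open points were not called. The most abundant members (Actg1, Actb, Acta2 and Tpm4) lie near no change, the farthest being Actg1 at -0.23, and Tnnt2, Myh13 and the sarcomeric genes that fell lie at lower levels.

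Genes that work with these proteins were counted in 4 lists of known roles. Of all genes tested, 58.7% were called, 29.5% higher and 29.3% lower, and the small counts in these lists are descriptions from which nothing particular to a list is read. Of 6 tested genes for thin filament length and caldesmon, 1 rose and 3 fell: Cald1, caldesmon, rose 1.22-fold to 1634 CPM, against 1335 CPM with GFP, Tmod1, which caps the pointed end (values not whole in all 6 libraries), fell 4.79-fold to 0.476 CPM, against 2.31 CPM, and Lmod1, smooth muscle leiomodin, fell to 6.39 CPM, against 13.5 CPM (edgeR adjusted p = 1.33e-09, 1.14e-05 and 1.44e-07). Of 3 tested thick filament proteins and myosin chaperones, none rose and 2 fell: Myom2, an M-line protein, 11.2-fold, and Unc45a, the general myosin chaperone, 1.58-fold (adjusted p = 4.36e-06 and 4.50e-08). In that list 7 of 10 genes, Unc45b and Smyd1 among them, had too few counts to test. Of 9 tested genes of actin monomer handling, 2 rose and 4 fell: Tmsb4x, thymosin beta-4, which sequesters actin monomers, fell 1.97-fold to 65.3 CPM, against 128 CPM, Cfl2, muscle cofilin, fell 1.53-fold, and Tmsb10 rose 1.27-fold (adjusted p = 1.61e-16, 2.08e-12 and 2.02e-09). Of the serum response factor family, Srf rose 1.15-fold, its coactivators Mrtfa and Mrtfb fell 1.21-fold and 1.24-fold (adjusted p = 2.06e-04, 4.68e-06 and 3.46e-06), and Myocd was not tested. Within these counts, some calls were lost when 1 library was left out: Smtn without GFP replicate 2 or ChREBP-beta replicate 2, Cap1 without ChREBP-beta replicate 2 or 3, and Dstn without any of 5 libraries. The lists' medians were -0.08, -0.66, -0.06 and -0.28 in log2, beside -0.0040 over all genes tested.

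Of the 32 members that were not tested, 3 (Myh4, Myh15 and Myo3a) had no count in any library, and the largest sum over the 6 libraries was 62 counts, of Myo18b. Myo5c had 12, 12 and 9 counts with ChREBP-beta and 0, 9 and 9 with GFP, and like Myh6 it had none in GFP replicate 1. Besides the 5 called without the filter (Myl1, Tnni2, Tnnt3, Myl3 and Myo18b), the untested members with a count were not called in the fit with no filter, so no difference between groups was detectable for them at this depth.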

How the data were processed

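Per the labels, total RNA was extracted with Trizol and sequenced from 6 samples, grouped by their titles. The authors deposited estimated counts per gene symbol, not normalized, of which 7.74% are not whole numbers. The submitters' processing notes list TopHat2 2.0.0, Bowtie2 2.0.0.5 and fastp. They name GRCg6a, which is a chicken assembly, although the gene symbols are those of the mouse. No source used here gives the mouse build, the annotation, the counting tool or the strand setting, so genes that overlap on opposite strands cannot be separated.

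Rows of 24 repeated symbols were summed and values rounded. Genes were tested with edgeR 4.0.16 in R 4.3.3: filterByExpr (minimum count 10, minimum total 15), TMM, glmQLFit and glmQLFTest over 12166 genes (two-sided), calling a Benjamini-Hochberg adjusted p under 0.05. Standard errors are the size of the log2 value over the root of the F statistic. The filter level is 10 counts at the median library size. Levels per kilobase use the union of GENCODE M21 exons (GRCm38), in which all 79 members were found by symbol and which may not be the authors' build. Promoter windows are RefSeq's. Folds against no count set that group at 3 counts in all, and intervals are exact 95%. Both cover counting error only.

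Full values are given, in each of 8 groups (sarcomeric heavy chains, light chains and actins, troponins, smooth muscle, cytoplasmic, tropomyosins, unconventional myosins), for up to 3 members with the highest CPM and up to 3 called ones with the largest change. Other tested sarcomeric, smooth muscle and cytoplasmic members may be named, and, per list, the up to 3 called genes that rank first by adjusted p. Untested low-count members and neighbouring genes were added after their values were seen. Members, classes and lists were chosen with earlier results of these data known. Replicate pairs differed by more than sampling noise (chi-square per degree of freedom 2.15 to 3.96), so all 6 were kept. The procedure was tested on simulated counts. The fit was repeated with 3 other scalings (library size alone, upper quartile, RLE), with no filter or a mean CPM minimum of 5, with the replicate block, with DESeq2 1.42.0, and without each library. Isoform shares were recomputed with other length scalings and, added after seeing the data, each library left out. Values of 1 member and of 1 gene list are not reported here.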

Additional observations from a re-analysis of the deposited data

How the results depend on the processing

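No called member changed direction under the alternatives run, while 8 uncalled ones did under at least 1 (Actb, Myl12a, Myl4, Myl9, Myo1c, Myo7a, Tpm1 and Tpm4). Members called higher numbered 6 to 8 and members called lower 17 to 28 over all alternatives, beside 7 and 24. With each library left out they were 6 to 8 and 22 to 28. The number of members tested also changed: the 17 came with the mean CPM minimum of 5, which tested 32 members. The fit with no filter tested 76, beside 47 in the main fit. Over all genes, the calls numbered 6209 to 7383, beside 7145. Of the members' values under the alternatives, 566 kept their side of the threshold, 16 lost a call and 14 gained one. The lost calls were those of Tpm3, Acta2, Tagln2 and Cnn1. The calls gained were of Cnn2, Myo5a, Myo6 and Myo9a. Without a filter, the low-count genes Myl1, Tnni2 and Tnnt3 were also called lower and Myl3 and Myo18b higher. Replicate numbers did not pair the samples: over 2000 genes, the deviations of same-numbered samples correlated at -0.20, -0.040 and -0.33, and with the replicate block 6 members were called higher and 24 lower, Tpm3 being the call lost (adjusted p = 0.094).

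The difference in the Myh9 share of heavy chains, 6.06 percentage points per kilobase of exon union, was 5.24 with no length scaling and 4.97 with the longest transcript, and that in the Tnnt2 share of troponin T, 50.6, was 22.3 with no length scaling, each from the change of length scale itself. With each library left out, the Actb share differed by 3.36 to 3.64, the Myh9 share by 5.83 to 6.22 and the Tnnt2 share by 48.5 to 52.7 percentage points. Library-size scaling shifted the median of all genes to -0.050.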
